A study of Saccharomyces cerevisiae with 5 samples.

Results

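The 9 genes described here encode aconitase and other matrix enzymes of the tricarboxylic acid (TCA) cycle of budding yeast, Saccharomyces cerevisiae. Succinate dehydrogenase and the mitochondrial malate dehydrogenase MDH1, which complete the cycle, are not among them and are given separately. They are CIT1 (citrate synthase), ACO1 (aconitase), IDH1 and IDH2 (isocitrate dehydrogenase), KGD1 and KGD2 (oxoglutarate dehydrogenase), LSC1 and LSC2 (succinyl-CoA ligase) and FUM1 (fumarase). They were chosen by name, and each was represented by its own probe set, so that all 9 were measured among 5449 genes in all. RNA of exponentially growing batch cultures was hybridised to 5 Affymetrix arrays. The wild-type reference strain FY4 was measured on 3 arrays and a mutant labelled PHO2 deletion on 2. Pho2 is a homeodomain protein that works together with Bas1 at purine genes and with Pho4 at phosphate genes. Both groups grew in minimal medium with glucose at 30 °C and 300 rpm. The labels name no strain background and no marker for the deletion, and they do not say that replicates came from separate cultures, so the p-values measure the spread between these arrays, which may be technical.

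The cycle takes up acetyl-CoA by condensing it with oxaloacetate to citrate. Citrate is rearranged to isocitrate by aconitase, an iron-sulfur enzyme, and oxidised through oxoglutarate and succinyl-CoA to succinate, which is turned back to oxaloacetate through fumarate and malate. In yeast growing on glucose, where respiration is repressed, the first steps are known to supply oxoglutarate for the synthesis of glutamate. CIT1, ACO1, IDH1 and IDH2 are known targets of the retrograde factors Rtg1 and Rtg3 when mitochondria are impaired, and genes of the cycle are known targets of the Hap2/3/4/5 complex.

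Median log2 signals over the 5449 genes lay between 11.09 and 11.16 on the wild-type arrays and between 11.16 and 11.18 on the arrays labelled PHO2 deletion, and r across genes was between 0.988 and 0.995 within groups. The probe set of PHO2 itself gave overlapping groups. Its log2 values were 10.72, 10.54 and 10.38 in wild-type and 10.07 and 10.84 on the arrays labelled PHO2 deletion (difference -0.09, SE 0.24, adjusted p = 0.825 by limma). Where its probes lie relative to the deleted part is not stated in the labels, so the groups are named by their labels throughout. The 6 markers of mating type a cells lay above the background bound of 6.44 on every array. Of the 4 markers of mating type alpha cells, 3 did so as well, and MF(ALPHA)1 lay below the bound in wild-type (mean 5.96) and above it on the arrays labelled PHO2 deletion (6.91 and 6.60). All 6 a markers were higher on the arrays labelled PHO2 deletion without overlap, as were 27.1% of all genes. The median difference over the 6 markers was 0.66. STE2, STE6 and BAR1 differed by 0.20, 0.16 and 0.14, and MFA1, MFA2 and ASG7 by 1.38, 1.11 and 1.24. Only ASG7 had an adjusted p below 0.05 by limma (0.0192), and it rose 2.37-fold. The coding lengths of MFA1, MFA2 and ASG7 are 111, 117 and 630 nt. Among the 4 alpha markers, the receptor gene STE3 rose 1.90-fold. MF(ALPHA)1 differed by 0.79 (adjusted p = 0.0776 by limma). The groups overlapped for MF(ALPHA)2 and SAG1, with differences of -0.21 and 0.07. The part of these differences in the results below was not tested. Transcripts of short genes were higher on the arrays labelled PHO2 deletion, with a median log2 difference of 0.32 over the 908 genes of up to 600 nt of coding sequence. That median was -0.05 over the 1284 genes of over 1200 and up to 1800 nt and also -0.05 over the 1519 longer genes. Short genes also differed among the wild-type arrays. Wild-type replicate 3 minus the mean of wild-type replicates 1 and 2 was -0.82 for MFA1 and -1.17 for MFA2. Among short genes named below, it was -0.53 for KGD4, -0.49 for HAP3, -0.31 for GRX5, -0.13 for SDH3 and -0.09 for SDH4. For MF(ALPHA)1 and MF(ALPHA)2 it was 0.32 and 0.08. The 9 genes have coding lengths from 990 nt (LSC1) to 3045 nt (KGD1).

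Aconitase was the 1 step of the 9 genes that changed past the threshold, and it fell. ACO1 was lower on the arrays labelled PHO2 deletion, at 76.4% of the wild-type level, while no gene of the 9 rose (limma, adjusted p below 0.05 over all genes). The next largest difference ran the other way: KGD2, the succinyl-transferring subunit of oxoglutarate dehydrogenase, was 1.21-fold higher and missed the threshold. Signs were divided around the cycle, 4 positive and 5 negative, with a median difference of -0.06 against 0.01 over all genes. Besides KGD2, the positive differences were small: 0.06 for CIT1, 0.06 for KGD1 and 0.07 for LSC1. With each array centred on its median these were 0.02, 0.01 and 0.03, and that of KGD2 was 0.23. The background for these counts was 5.05% of all genes called, with 3.17% called higher (173 genes) and 1.87% called lower (102 genes). With the arrays quantile normalized again, 172 genes were called higher and 245 lower. Before adjustment, 4 of the 9 genes had a p below 0.05 by limma, a measure that 29.4% of all genes met.

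**Figure D1:**
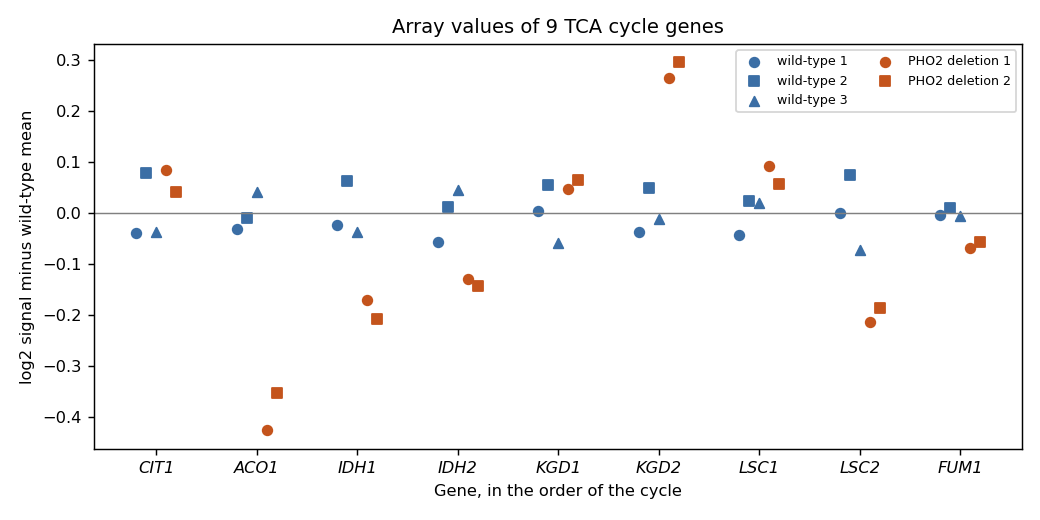
Log2 signal of each of the 9 genes on each array, minus the gene's wild-type mean, in the order of the cycle; blue symbols are the 3 wild-type arrays and orange symbols the 2 arrays labelled PHO2 deletion. ACO1 has the lowest orange points and KGD2 the highest, and for CIT1 and KGD1 the groups overlap.

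The first step, citrate synthase, did not separate the groups. CIT1 (YNR001C), which condenses acetyl-CoA with oxaloacetate in mitochondria, had log2 values of 13.72, 13.84 and 13.72 in wild-type and 13.85 and 13.80 on the arrays labelled PHO2 deletion. One of these lay above all wild-type arrays and the other between them. The means were 13.76 ± 0.07 (SD, n = 3) and 13.82 ± 0.03 (SD, n = 2), and the difference was 0.06 (SE 0.06, 95% interval from -0.10 to 0.22, adjusted p = 0.533 by limma).

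The second step, aconitase, was lower on both arrays labelled PHO2 deletion than on any wild-type array. ACO1 (YLR304C) interconverts citrate and isocitrate and is also known to protect mitochondrial DNA. Its log2 values were 14.23, 14.26 and 14.31 in wild-type and 13.84 and 13.91 on the arrays labelled PHO2 deletion. The gap between the groups was several times the spread within either of them. The means were 14.27 ± 0.04 (SD, n = 3) and 13.88 ± 0.05 (SD, n = 2), so that ACO1 fell by 0.39 (SE 0.06, 95% interval from -0.53 to -0.25, adjusted p = 0.0312 by limma). On the linear scale the mean signal went from 19709 to 15050. A difference as low as this or lower was found for 1.95% of all genes. In RNA of whole cultures, less transcript in every cell and fewer cells that express the gene cannot be told apart. The direction held in all 14 alternative settings, but the call rested on all 5 arrays: without wild-type replicate 1, 2 or 3 the adjusted p was 0.124, 0.0554 and 0.0510, and without PHO2 deletion replicate 1 or 2 it was 0.221 and 0.136 (limma). After removal of the trend with coding length, the ACO1 difference was -0.36 (adjusted p = 0.0311 by limma).

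The third step, isocitrate dehydrogenase, gave values below wild-type for both of its subunits, and neither passed the test. The enzyme makes oxoglutarate, and Idh1 is known as its regulatory and Idh2 as its catalytic subunit. IDH1 (YNL037C) had log2 values of 13.27, 13.35 and 13.25 in wild-type and 13.12 and 13.08 on the arrays labelled PHO2 deletion. IDH2 (YOR136W) had 13.64, 13.71 and 13.75 in wild-type and 13.57 and 13.56 on the arrays labelled PHO2 deletion. For both subunits the groups did not overlap. The differences were -0.19 (SE 0.06, 95% interval from -0.34 to -0.04, adjusted p = 0.120 by limma) for IDH1 and -0.14 (SE 0.06, 95% interval from -0.28 to 0.01, adjusted p = 0.187) for IDH2.

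The fourth step, oxoglutarate dehydrogenase, had 1 subunit near the wild-type level and 1 above it. The complex joins the dehydrogenase subunit Kgd1, the succinyl-transferring subunit Kgd2 and the lipoamide dehydrogenase Lpd1, which is also part of pyruvate dehydrogenase and of the glycine cleavage system. KGD1 (YIL125W) had log2 values of 12.27, 12.32 and 12.20 in wild-type and 12.31 and 12.33 on the arrays labelled PHO2 deletion, so that the groups overlapped. KGD2 (YDR148C) had 12.61, 12.69 and 12.63 in wild-type and 12.91 and 12.94 on the arrays labelled PHO2 deletion, both above every wild-type array. The KGD2 difference was 0.28 (SE 0.06, 95% interval from 0.14 to 0.42) and its adjusted p of 0.0573 by limma lay just over the threshold. That of KGD1 was 0.06 (SE 0.06, 95% interval from -0.09 to 0.20, adjusted p = 0.551). KGD2 passed with a trend in eBayes (adjusted p = 0.0350) and with array weights (adjusted p = 0.0296). The third component, LPD1, differed by -0.01 (SE 0.05, adjusted p = 0.925), and the groups overlapped. KGD4, a small subunit known to hold Lpd1 in the complex, had a difference of 0.59 (SE 0.19, adjusted p = 0.122). Its coding length is 372 nt, and after removal of the length trend the KGD4 difference was 0.18.

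The fifth step, succinyl-CoA ligase, had 1 subunit below wild-type and 1 slightly above it, and neither passed the test. LSC1 (YOR142W), the alpha subunit, had log2 values of 13.14, 13.21 and 13.21 in wild-type and 13.28 and 13.24 on the arrays labelled PHO2 deletion. LSC2 (YGR244C), the beta subunit, had 12.46, 12.54 and 12.39 in wild-type and 12.25 and 12.28 on the arrays labelled PHO2 deletion. Neither gene's groups overlapped, LSC1 lying higher and LSC2 lower on the arrays labelled PHO2 deletion. The differences were 0.07 (SE 0.05, 95% interval from -0.06 to 0.21, adjusted p = 0.389 by limma) for LSC1 and -0.20 (SE 0.06, 95% interval from -0.36 to -0.04, adjusted p = 0.126) for LSC2. With each array centred on its median they were 0.03 (adjusted p = 0.766 by limma) for LSC1 and -0.24 (adjusted p = 0.0767) for LSC2.

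Fumarase, the last of the 9 genes in the cycle, stayed close to the wild-type level. FUM1 (YPL262W), whose product is known to act in mitochondria and in the cytosol, had log2 values of 13.01, 13.03 and 13.01 in wild-type and 12.95 and 12.96 on the arrays labelled PHO2 deletion. The arrays of each group lay close together and the groups did not overlap, but the difference was small, at -0.06 (SE 0.05, 95% interval from -0.19 to 0.06, adjusted p = 0.422 by limma). Over the 9 genes, the groups did not overlap for 5 with lower values and 2 with higher values on the arrays labelled PHO2 deletion. Over all genes, 25.9% lay lower and 27.1% lay higher without overlap.

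**Figure D2:**
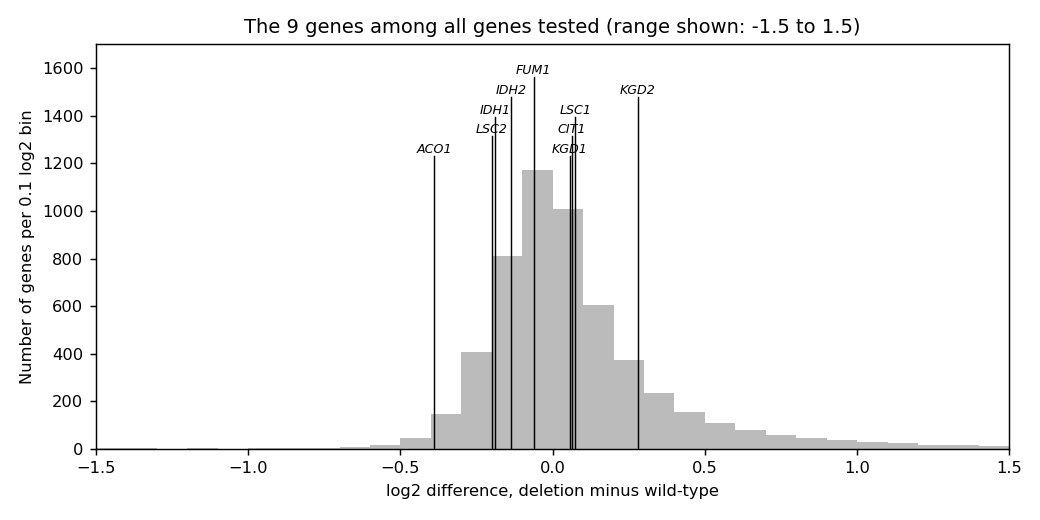
Number of genes per bin of log2 difference (arrays labelled PHO2 deletion minus wild-type) over all 5449 genes, shown from -1.5 to 1.5, with a line for each of the 9 cycle genes. ACO1 at -0.39 lies in the lower tail, KGD2 at 0.28 has 83.2% of genes at or below it, and the others lie between -0.20 and 0.07.

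ACO1 was then set against each of the other 8 genes within an array, to give the size of the gap between aconitase and each other step. ACO1 had the lowest difference of the 9, so the sign of every such change is fixed by the values above. The log2 ratio of ACO1 to each of them was lower on both arrays labelled PHO2 deletion than on any wild-type array for 8 of 8 genes, and the same held for 90.6% of all genes. The change was largest against KGD2, at -0.67. The log2 ratio of ACO1 to KGD2, centred on its wild-type mean, was 0.01, -0.06 and 0.05 in wild-type and -0.69 and -0.65 on the arrays labelled PHO2 deletion. Against CIT1, KGD1, LSC1 and FUM1 the change was -0.45, -0.45, -0.46 and -0.33, and against IDH2, IDH1 and LSC2 it was -0.25, -0.20 and -0.19. The groups of 3 and 2 arrays allow 10 splits, so that an exact two-sided permutation test cannot give a p below 0.1. The exact permutation p was 0.1 for 7 of the pairs and 0.2 for LSC2 (0.114 and 0.2 after Benjamini-Hochberg adjustment over the 8 pairs). In a limma fit of the ratio of ACO1 to every gene, added after the data were seen, 6 of the 8 ratios passed the threshold. The adjusted p was 0.00449 for KGD2 and 0.0189 for IDH2, and IDH1 (0.0615) and LSC2 (0.0813) did not pass. Since ACO1 itself is in every such ratio, 80.7% of all genes were called in that fit, so neither count shows anything particular to the cycle.

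**Figure D3:**
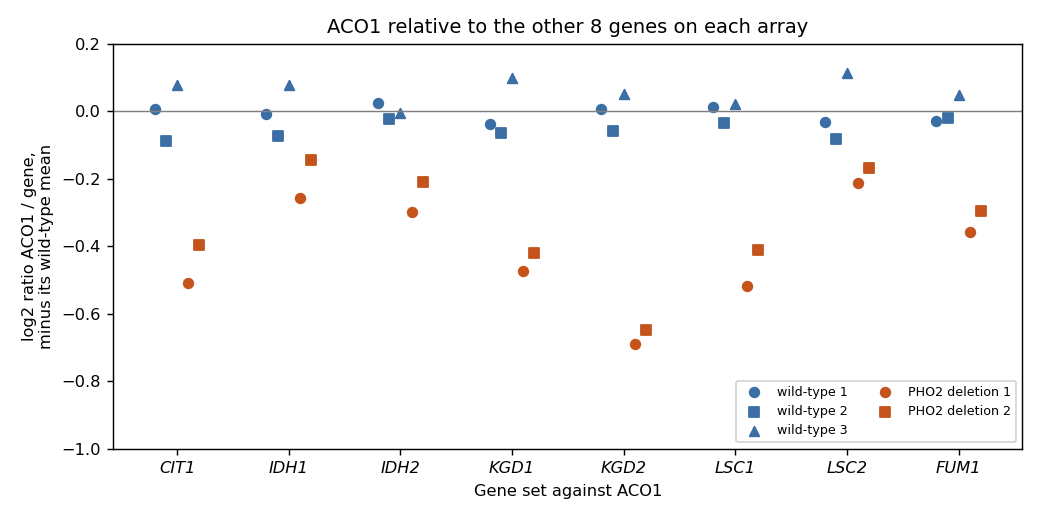
Log2 ratio of ACO1 to each of the other 8 genes on each array, minus the wild-type mean of that ratio; blue symbols are wild-type arrays and orange symbols arrays labelled PHO2 deletion. All orange points lie below all blue points of the same gene, as they would for 90.6% of all genes, farthest for KGD2 at -0.69 and -0.65.

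Within the enzymes made of 2 subunits, ratios of the subunits were compared after their values were known. The log2 ratio of LSC2 to LSC1, centred on wild-type, was 0.04, 0.05 and -0.09 in wild-type and -0.31 and -0.24 on the arrays labelled PHO2 deletion, a change of -0.27. The log2 ratio of KGD2 to KGD1 was -0.04, -0.01 and 0.05 in wild-type and 0.22 and 0.23 on the arrays labelled PHO2 deletion, a change of 0.22. LSC1 lay higher and LSC2 lower without overlap, so the separation of their ratio was fixed by the values above. KGD2 had likewise separated the groups on its own, while KGD1 stayed near the wild-type level. The exact permutation p of 0.1 for each (0.15 adjusted over the 3 pairs) is therefore no separate support. The share of all gene pairs with such a change was not computed. The ratio of IDH2 to IDH1 changed by 0.05, with overlapping groups (exact permutation p = 0.4).

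At the steps that complete the cycle, 4 genes passed the threshold with all arrays and main settings, all in the direction opposite to aconitase. Over all genes, 3.17% were called higher and 1.87% lower, the background for counts of called genes here and in the next paragraph. Of the 4 genes of succinate dehydrogenase, the membrane-bound enzyme that oxidises succinate to fumarate and feeds the respiratory chain, 3 rose and 0 fell. SDH2, the iron-sulfur subunit, had log2 values of 12.12, 12.16 and 12.05 in wild-type and 12.79 and 12.71 on the arrays labelled PHO2 deletion, and rose by 0.64 (SE 0.06, adjusted p = 0.0145 by limma). The membrane anchor genes SDH4 and SDH3 rose by 0.60 (adjusted p = 0.0152) and 0.45 (adjusted p = 0.0312), and the flavoprotein gene SDH1 differed by 0.24 (adjusted p = 0.0884). SDH3 and SDH4 are short, with coding lengths of 597 and 546 nt, and after removal of the length trend their differences were 0.24 (adjusted p = 0.0748) and 0.34 (adjusted p = 0.0741). Under the same correction SDH2 stood at 0.55 (adjusted p = 0.00673). MDH1, the mitochondrial malate dehydrogenase that closes the cycle, had log2 values of 13.45, 13.45 and 13.47 in wild-type and 13.78 and 13.73 on the arrays labelled PHO2 deletion, and rose by 0.30 (SE 0.05, adjusted p = 0.0441 by limma). MDH1 missed the threshold with arrays centred on their medians (0.0692) and without any 1 array (adjusted p from 0.0634 to 0.255). SDH2, SDH3 and SDH4 missed it without wild-type replicate 1, PHO2 deletion replicate 1 or PHO2 deletion replicate 2, and passed without the other arrays.

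**Figure D4:**
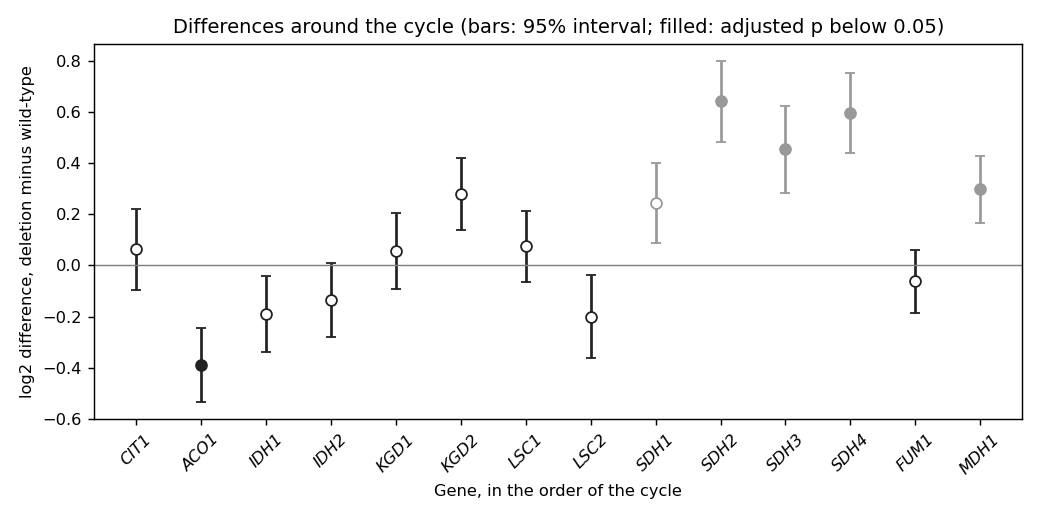
Log2 difference (arrays labelled PHO2 deletion minus wild-type) with its 95% interval for the 9 genes in black and for the succinate and malate dehydrogenase genes in grey, in the order of the cycle; filled points passed the threshold. ACO1 is the only filled point below 0, and SDH2, SDH3, SDH4 and MDH1 are filled and above 0.

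Among the isozymes of these enzymes and the malate steps, 10 genes were measured, of which 1 rose (MDH1) and 0 fell, with a median of 0.09. CIT2, the peroxisomal citrate synthase and the best known target of the retrograde factors, had log2 values of 14.22, 14.28 and 14.31 in wild-type and 14.11 and 14.04 on the arrays labelled PHO2 deletion. Its groups did not overlap, and the CIT2 difference of -0.20 (SE 0.06, adjusted p = 0.113 by limma) did not pass. A list for entry into the cycle held the genes of pyruvate dehydrogenase, pyruvate carboxylase and the mitochondrial pyruvate carrier. It also held KGD4, which belongs to oxoglutarate dehydrogenase, a step within the cycle. Of the 11 genes in that list, 0 rose and 1 fell (median -0.01). That gene was PYC1, a pyruvate carboxylase that makes oxaloacetate in the cytosol. Its log2 values were 13.64, 13.73 and 13.78 in wild-type and 13.13 and 13.16 on the arrays labelled PHO2 deletion. PYC1 fell by 0.58 (SE 0.06, adjusted p = 0.0156 by limma), and this call was lost without wild-type replicate 1, PHO2 deletion replicate 1 or PHO2 deletion replicate 2. The paralog PYC2, whose sequence is close to that of PYC1, differed by 0.04 (adjusted p = 0.629) on a probe set of its own, and how far the probe sets tell these genes apart was not tested.

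The remaining lists around the cycle held no called gene by limma over all genes. Over all genes, 29.4% had an unadjusted p below 0.05, which is the background for the counts that follow. Of 8 carriers of cycle intermediates, 4 had an unadjusted p below 0.05 and the median was -0.06. The largest difference was that of OAC1, the mitochondrial oxaloacetate carrier (-0.34, SE 0.07, adjusted p = 0.0592), which passed in 5 of the 9 alternatives that keep all arrays and in 0 of the 5 that leave 1 out. Of 9 genes of oxoglutarate and glutamate use, glutamine and lysine synthesis included, 7 had negative differences and 4 had an unadjusted p below 0.05 (median -0.15). LYS4, the homoaconitase of lysine synthesis, had the largest at -0.25 (SE 0.07, adjusted p = 0.0986). Of 8 regulators, 1 had an unadjusted p below 0.05 (median 0.09): HAP3, a subunit of the CCAAT-binding complex, differed by 0.64 (SE 0.17, adjusted p = 0.0943), and the HAP3 coding length is 435 nt. After removal of the length trend the HAP3 difference was 0.29 (adjusted p = 0.0949). HAP3 passed with array weights and without wild-type replicate 3 (adjusted p = 0.0387). RTG1, RTG2 and RTG3 did not pass in any of the 14 alternative settings. Of 12 genes of mitochondrial iron-sulfur cluster assembly, on which aconitase and Sdh2 depend, 4 had an unadjusted p below 0.05 (median 0.06). The largest difference there was that of the glutaredoxin gene GRX5 (0.39, SE 0.15, adjusted p = 0.163), and after removal of the length trend the GRX5 difference was 0.05. NFS1, the cysteine desulfurase that supplies the sulfur, lay on the other side at -0.36 (SE 0.08, adjusted p = 0.0660). Its difference stayed between -0.42 and -0.31, and NFS1 passed in 3 of the 14 alternatives.

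**Figure D5:**
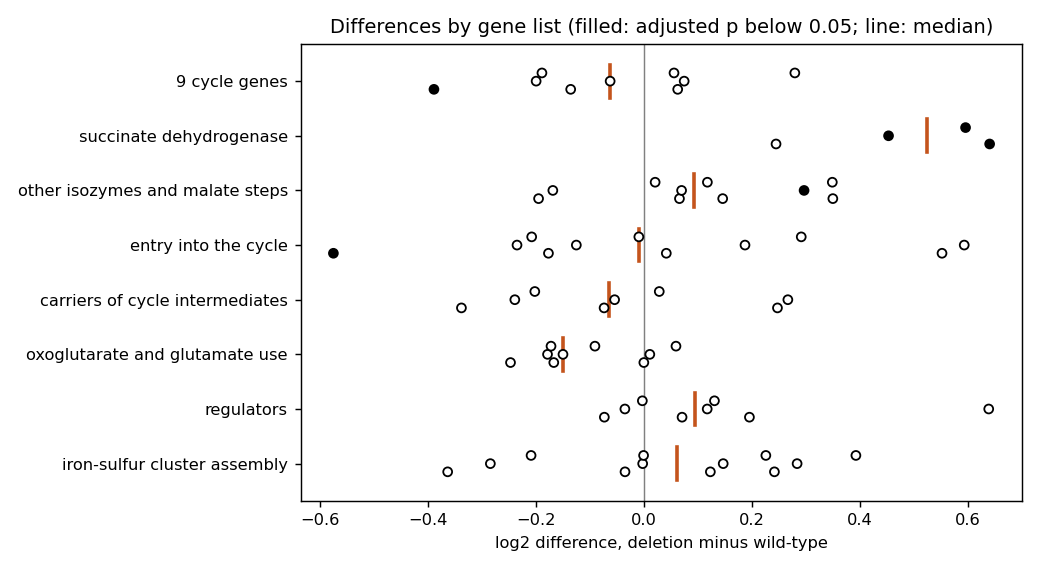
Log2 differences (arrays labelled PHO2 deletion minus wild-type) of every measured gene in the 9 cycle genes and 7 related lists; each point is a gene, filled points passed the threshold, and an orange line marks the list's median. The succinate dehydrogenase genes lie apart at a median of 0.52, and the 9 cycle genes straddle 0.

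The genes most like ACO1 and KGD2 over the 5 arrays were found by the root mean square distance between log2 values centred on each gene's mean. Nearest to ACO1 were WRS1, the cytosolic tryptophanyl-tRNA synthetase (distance 0.017), TGS1, the methyltransferase of snRNA caps (0.022), and ADE3, the cytosolic C1-tetrahydrofolate synthase (0.023). WRS1 had log2 values of 12.94, 12.99 and 12.98 in wild-type and 12.54 and 12.61 on the arrays labelled PHO2 deletion, and the differences of WRS1, TGS1 and ADE3 were -0.39, -0.35 and -0.43. Nearest to KGD2 were PRX1, the mitochondrial peroxiredoxin (0.0089), POM33, a membrane protein of the nuclear pore (0.027), and MDM36, a mitochondrial morphology protein (0.028), with differences of 0.29, 0.28 and 0.32. Among the 9 genes themselves the nearest pair was IDH1 and LSC2 (0.029), followed by CIT1 and KGD1 (0.031), and the farthest was ACO1 and KGD2 (0.33).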

How the data were processed

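The authors deposited 1 linear intensity per probe set and array, and the submitters' processing notes name R 2.8.0, affy and RMA. RMA gives log2 values, so a return to the linear scale is inferred from the deposited range of 9.49 to 37719. Log2 of the signal was taken. Of 10928 probe sets, 5498 were matched to 1 gene through the platform annotation and the R64 gene table, and the brightest probe set was kept for 47 genes with several. The background bound, 6.44, is the 95th percentile of 1747 annotated probe sets with no match (signal 86.9). No column belonged to another sample (0 of them). The arrays labelled PHO2 deletion were compared with wild-type by limma 3.58.1 under R 4.3.3 (two-sided lmFit and eBayes fit, 3 residual and 2.23 prior degrees of freedom) with Benjamini-Hochberg adjustment over 5449 genes, and the fit was tested on simulated data. The number of arrays limits the precision. No genome build is named for the values, so no coordinates are given. The 9 genes, the related lists and the alternatives were chosen with earlier results of these data known. Named genes are the 9, the steps or subunits of the same cycle (SDH1 to SDH4, MDH1, LPD1), PHO2 and CIT2. They also include, in each related list, every called gene or, with none, the one with the largest absolute difference, and the 3 genes most like ACO1 and the other gene with the largest difference. KGD4, PYC2, NFS1, RTG1 to RTG3 and the mating markers were named after their values were seen. Markers of mating type a held 1 risen and 0 fallen gene of 6, and those of mating type alpha 1 risen and 0 fallen of 4, against 3.17% of all genes risen.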

Additional observations from a re-analysis of the deposited data

Results flagged for a closer look

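A signal outside the genes analysed separated the groups: the array holds 47 reporter probe sets for foreign marker sequences, and 1 of them reached at most 4.58 in wild-type, under the bound of 6.44. Its mean on the arrays labelled PHO2 deletion was 14.36 on the log2 scale. Which construct it represents was not tested.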

How the results depend on the processing

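The signs of all 9 differences were kept in all 14 alternatives. Those of the subunit ratios were kept in every alternative for which the ratios were computed. ACO1 had the lowest difference of the 9 throughout, which fixes the signs of the 8 changes in the ratio to ACO1, so these are no separate check. The count of called genes, 275, was 417 with arrays quantile normalized again, 638 with array weights, 35 with the replicate block and between 19 and 257 without any 1 array. Of the 9 genes, 1 rose with a trend in eBayes and with array weights (KGD2). The number that fell was 0 with the replicate block, where ACO1 had an adjusted p of 0.148 by limma, and 0 without any 1 array, where the adjusted p of ACO1 ran from 0.0510 to 0.221 and its difference from -0.43 to -0.35. With 1 array labelled PHO2 deletion left out, the lone array is assumed to vary like the wild-type arrays. Same-numbered arrays deviated with correlations of -0.38 and -0.0027 across genes, so the numbers were not taken to pair the samples. With the replicate block, SDH2, SDH3, SDH4, MDH1 and PYC1 also missed the threshold (adjusted p from 0.0884 to 0.185 by limma). The median over the 9 genes was -0.11 with each array centred on its median, where the median over all genes was -0.04. The permutation test could call no pair, as its p cannot fall below 0.1. The limma fit of the ratio to ACO1 called 80.7% of all genes and 6 of the 8 pairs, so that count shows nothing particular to the cycle. The changes in those 6 pairs were -0.45 (CIT1), -0.25 (IDH2), -0.45 (KGD1), -0.67 (KGD2), -0.46 (LSC1) and -0.33 (FUM1). The cause of these differences was not tested. All 9 genes lay far above background, with wild-type means of 12.26 or more against 6.44, and compression of bright signals was not tested.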
